A study of Homo sapiens with 51 samples.

Results

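HMLE-TWIST1 cells were compared with HMLE cells 2 days after transfection with a scrambled small interfering RNA, in 3 libraries of each line. HMLE is an established line of immortalised human mammary epithelial cells, labelled wild type. HMLE-TWIST1 cells are labelled as overexpressing the transcription factor TWIST1, and the labels call both lines mammary gland epithelial cells. Both lines grew in the same mixture of mammary epithelial medium and serum-containing medium and had the scrambled duplex for 48 h, so the line is the only labelled difference. These are 6 of the 51 samples of the series and 2 of its 17 groups, chosen by line, duplex and day. The deposited table lists 19777 genes for them, of which 17848 had enough reads to be tested. The study asks what SUV39H1 and SUV39H2, enzymes that methylate lysine 9 of histone H3, do in the mesenchymal state. It treated the TWIST1 line with chaetocin, a compound used against these enzymes, and knocked both down in both lines; the scrambled duplex is the knockdown's control. Which promoter drives TWIST1, whether the line is a single clone, and whether the replicates are separate cultures are not given in the sources used here, so every p below measures the spread between libraries, which may be technical. That spread, and the filter on reads, come from 12 libraries: these 6, and 6 of the same lines and day in which SUV39H1 and SUV39H2 were knocked down.

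TWIST1 is a basic helix-loop-helix protein that pairs with E proteins such as TCF3 and TCF12 and binds E-box motifs in DNA. In the embryo it acts in neural crest and mesoderm, and in cultured epithelial cells its expression starts an epithelial to mesenchymal transition: cells lose the cadherins, desmosomes and keratins that hold an epithelial sheet together and make vimentin and a fibrous matrix. ID proteins oppose such factors by taking up the E proteins, and SNAIL and ZEB proteins repress epithelial genes through the E-box CAGGTG.

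Depth was 12064572 to 15662385 gene-assigned reads per library, with 19014 to 19101 genes at 1 read or more. Levels are given as CPM, reads scaled to library size, and as RPKM, which is also per length, where genes are compared with each other. The median SD of a gene's log2 CPM over 3 libraries was 0.127 in HMLE and 0.101 in HMLE-TWIST1. HMLE replicate 1 stood apart from the other HMLE libraries: the chi-square per degree of freedom was 15.8 and 17.6 against them, 2.33 between them, and 2.14 to 3.57 within HMLE-TWIST1. The nuclear noncoding RNA MALAT1 took 7.19% of its reads and 3.98 and 3.9% of the others', and gave 48.5% of the first of these chi-squares. Without MALAT1 that first value was still 7.74, so other genes set replicate 1 apart too. Results that rest on replicate 1 are given with and without it.

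Of the 17848 genes, 5988 (33.5%) were higher in HMLE-TWIST1 and 6267 (35.1%) lower, 68.7% in either direction (limma on log2 CPM, Benjamini-Hochberg adjusted p below 0.05). Without HMLE replicate 1 the counts were 5939 and 5943. With so many genes past the threshold, a count in a gene list has to be read against these shares, and the size of a change says more than the call. A log2 fold change above 1 held for 2811 higher genes (15.7%) and 3130 lower ones (17.5%), and one above 5 for 253 (1.42%) and 486 (2.72%). The 3 libraries of HMLE-TWIST1 all lay above those of HMLE for 35.9% of genes and all below for 37.3%. The median over all genes was -0.006. Scaling each library to its total reads moved that median to 0.153 and the share of higher genes among the calls from 48.9 to 58.6%, so small differences depend on the scaling. A gene near 0 in one line passed the read filter through the other line alone, so counts over the lists below describe the lists and test nothing. In cultures measured in bulk, fewer cells of a type and less RNA per cell cannot be told apart.

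TWIST1 itself was measured at 12.96, 12.58 and 15.01 CPM in the 3 HMLE libraries and at 575.4, 550.7 and 634.3 CPM in HMLE-TWIST1. The groups did not overlap, and TWIST1 was 43.0-fold higher (log2 fold change 5.43, SE 0.09, adjusted p = 4.19e-18), the direction that all 6 labels give. Transcripts of a transgene and of the endogenous TWIST1 gene cannot be told apart in gene-level reads. TWIST2, the closest relative of TWIST1, also passed at a log2 fold change of 3.24, but its level stayed low at 2.65 ± 0.789 CPM (SD, n = 3) against 0.166 ± 0.145. Of 6 tested partners and opponents of TWIST1, 1 was higher and 4 were lower. ID1, an inhibitor of helix-loop-helix pairing, stood at 376.1, 383.7 and 384.5 CPM in HMLE and at 54.14, 47.85 and 53.49 in HMLE-TWIST1, or -2.88 on the log2 scale (SE 0.06, adjusted p = 4.3e-18). ID3, a second inhibitor, was lower at -2.01 (SE 0.10). The E proteins moved little, TCF12 at 0.38 and TCF3 at -0.34.

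The labels of both lines were checked against defining markers. All 8 basal mammary markers, all 7 general epithelial markers and all 7 measured luminal markers were lower in HMLE-TWIST1, and all 9 mesenchymal markers were higher. Summed basal markers ranged from 12050 to 12540 CPM in HMLE and from 7.57 to 8.63 in HMLE-TWIST1, and summed mesenchymal markers from 1118 to 1289 and from 41750 to 43940. The luminal sum was far smaller in both lines, 377.5 to 425 against 106.3 to 112.2 CPM. The label mammary gland epithelial cells thus goes with the markers of HMLE, basal ones above all, and against those of HMLE-TWIST1. Of 7 leukocyte and 6 endothelial markers 4 and 2 are in the table, at summed levels of at most 13.7 and 10.0 CPM in any library; the table has no row for PTPRC, CD3E, PECAM1 or CDH5. FABP4, a fatty acid carrier used as an adipocyte marker, was an exception at 286.6, 247.8 and 276.8 CPM in HMLE, while HMLE-TWIST1 had 3 reads in all (ratio 4007, 95% counting interval 1371 to 19430). The table has no row for ADIPOQ or LEP, and the part of other cell types in these differences was not tested.

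**Figure D1:**
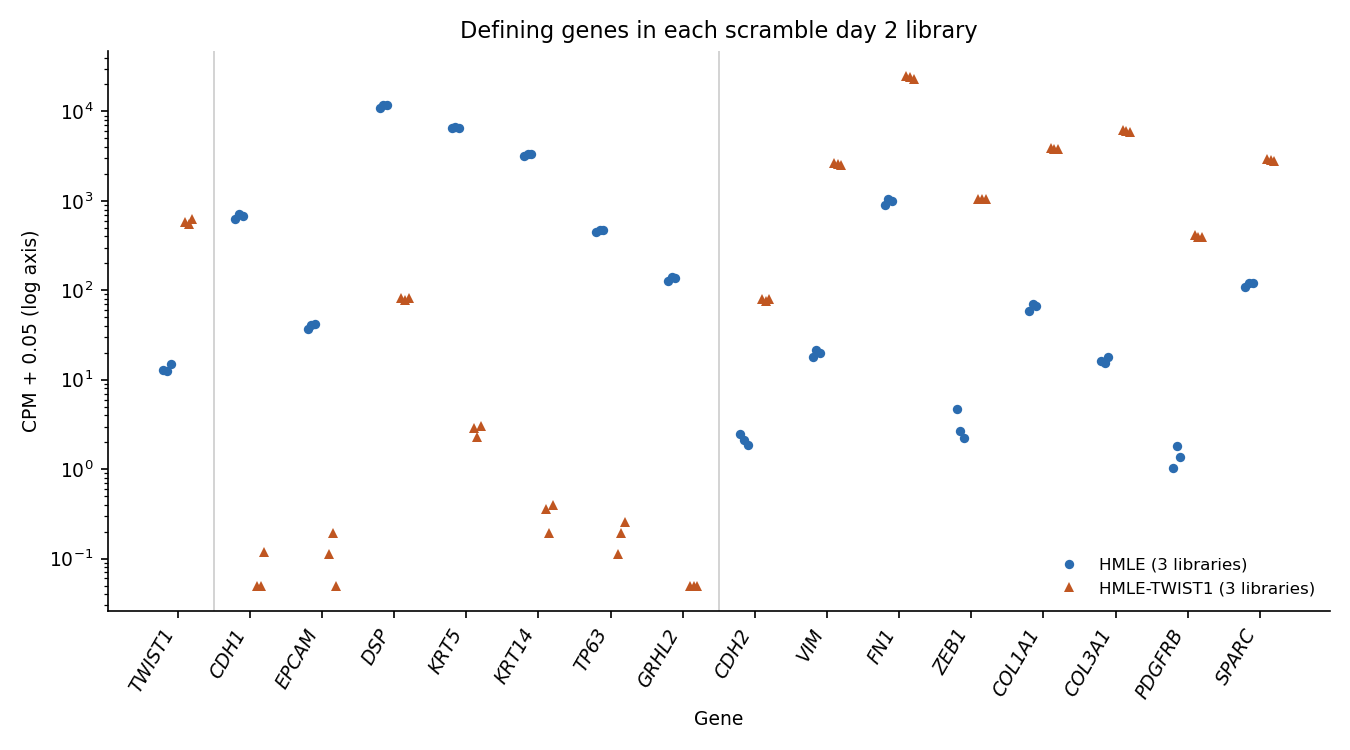
Level of 16 genes in each of the 6 libraries, in CPM plus 0.05 on a log axis; each point is a library of HMLE or HMLE-TWIST1. TWIST1 lies at 12.6 to 15.0 CPM in HMLE and at 550.7 to 634.3 in HMLE-TWIST1, and the lines do not overlap for CDH1, KRT5, VIM or ZEB1.

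Among the repressors that carry out the transition, 4 of 5 tested were higher and 1 lower (median 1.60). ZEB1, a zinc finger repressor of epithelial genes, stood at 4.71, 2.64 and 2.16 CPM in HMLE and at 1037, 1044 and 1062 in HMLE-TWIST1 (log2 fold change 8.38, SE 0.26, adjusted p = 2.48e-09). Its paralog ZEB2 was already at 71.3 ± 4.19 CPM in HMLE and reached only 107 ± 1.83 (0.59, SE 0.06). SNAI2, the SNAIL family member of basal cells, went from 86.1 ± 4.39 to 261.6 ± 7.00 CPM (1.60, SE 0.05, adjusted p = 1.75e-15). SNAI1, its better known relative, had 4 reads in HMLE and 90 in HMLE-TWIST1, 2.04 ± 0.664 CPM. In RPKM, which allows genes to be compared, the levels in HMLE-TWIST1 were 122 for ZEB1, 115 for SNAI2, 5.98 for ZEB2 and 1.21 for SNAI1. KLF8, another repressor assigned to this list, went against it: 80.4, 83.7 and 77.3 CPM in HMLE and 2.28, 2.59 and 2.62 in HMLE-TWIST1 (-4.93, SE 0.09).

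Of 19 further transcription factors linked to the transition 15 were higher and 3 lower (median 2.59). PRRX1, a homeobox factor of embryonic mesenchyme, stood at 0.622, 0.233 and 0.249 CPM in HMLE and at 153.5, 151.9 and 152.7 in HMLE-TWIST1 (8.28, SE 0.20). RUNX2, a factor of bone-forming cells, was higher at 2.03 (SE 0.06). TBX2 and FOXC2 had 0 reads in HMLE and were at least 120.9-fold and 46.5-fold higher, each against a limit of 3 reads over the 3 HMLE libraries, which covers counting error only. The 3 lower members were SOX9 (-6.35, SE 0.15), SOX4 (-2.51) and FOXC1 (-1.90), all present in HMLE at 91.8 to 110.2 CPM.

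All 22 tested transcription and splicing factors that maintain epithelial identity were lower, with a median of -6.76 (-7.33 with genes at 0 reads set to their bound). GRHL2, which keeps CDH1 and junction genes on, stood at 127, 140.2 and 138.6 CPM in HMLE and had 0 reads in HMLE-TWIST1, at least 2016-fold lower. ESRP1, which directs epithelial splicing, had 14651 reads against 1 (ratio 18050, 95% interval 3239 to 713000). TP63, the defining factor of basal cells, went from 447, 471.7 and 472.2 CPM to 0.0617, 0.144 and 0.207 (-10.69, SE 0.16, adjusted p = 6.27e-20). GRHL2, ESRP1 and TP63 were at or near 0 in all 3 HMLE-TWIST1 libraries, but others kept more: KLF5 at 11.6 ± 0.357 CPM (-5.93, SE 0.06) and TFAP2A, shared by epithelium and neural crest, at 63.1 ± 1.46 CPM (-2.09, SE 0.07).

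Cadherins exchanged places: of 11 tested cadherins and catenins 5 were higher and 6 lower. CDH1, for E-cadherin, stood at 630.1, 718.9 and 669.5 CPM in HMLE and had 1 read in all of HMLE-TWIST1 (ratio 30100, 95% interval 5401 to 1189000, adjusted p = 3.61e-11). CDH3, for the P-cadherin of basal cells, went from 285.2, 317.6 and 306.6 to 0.987, 0.577 and 0.483 CPM (-8.56, SE 0.19). CDH2, for N-cadherin, went from 2.40, 2.10 and 1.83 to 80.8, 76.7 and 80.7 CPM (5.15, SE 0.12, adjusted p = 2.96e-17). CDH11, a cadherin of mesenchyme and osteoblasts, went from 0.888, 0.621 and 0.498 to 295.2, 289.8 and 288.9 CPM (8.50, SE 0.14, adjusted p = 1.12e-19), and in RPKM it stood at 29.4 in HMLE-TWIST1 against 16.0 for CDH2. CDH6 had 0 reads in HMLE and was at least 76.6-fold higher. The catenins that anchor cadherins to actin changed less: CTNNB1 was 0.30 higher, CTNNA1 0.36 lower and CTNND1 1.74 lower on the log2 scale.

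RNA of desmosomes, the spot junctions that link keratin filaments of neighbouring cells, was lower for 14 of 15 tested members and higher for 1. The median was -7.17 (-8.10 with genes at 0 reads at their bound). DSP, which ties desmosomes to keratin, stood at 10980, 11860 and 11860 CPM in HMLE and 81.8, 77.9 and 81.3 in HMLE-TWIST1 (-7.17, SE 0.06, adjusted p = 9.77e-24). The desmosomal cadherins DSG3 (-10.68, SE 0.29), DSC2 (-10.07, SE 0.10) and DSC3 (-8.87, SE 0.08) were lower still, and DSG1 had 0 reads in HMLE-TWIST1, at least 3782-fold lower. All 7 tested desmosomal cadherin genes were lower, but the smallest fall was -2.62. Together they kept 128 to 132.1 CPM in HMLE-TWIST1, against 8822 to 9879 in HMLE. PKP4, an armadillo protein also found outside desmosomes, was the one higher member (0.61, SE 0.05). All 15 tight junction and polarity genes were lower (median -6.10), from CLDN1 at -8.62 (SE 0.17) to TJP1, the scaffold ZO-1 that other cells use too, at -1.17 (SE 0.05). CRB3, an apical polarity protein, stood at 11.28, 11.88 and 13.6 CPM in HMLE and had 0 reads in HMLE-TWIST1, at least 182.3-fold lower.

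All 17 epithelial surface and protease genes were lower as well (median -8.32, or -9.05 with genes at 0 reads at their bound), and their summed level went from 3672 to 3879 CPM in HMLE to 57.3 to 65.8 in HMLE-TWIST1. EPCAM, an adhesion protein of simple epithelia, was only moderately expressed in HMLE at 36.5, 40.9 and 42.2 CPM, with 3 reads in HMLE-TWIST1 (ratio 594.3, 95% interval 202.9 to 2885).

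Promoters of 4 genes of these lists are shown because CAGGTG and its complement CACCTG is the E-box that SNAIL and ZEB proteins bind. Each run is the 250 bases before the transcription start in the RefSeq table (GRCh38.p14, a later build than the hg19 of the expression files), 5′ to 3′ on the gene's strand, with matches on either strand in capitals. The examples were picked after the matches were seen: 3 that hold the motif and 1 that does not.
DSP, chr6:7541421-7541670, plus strand: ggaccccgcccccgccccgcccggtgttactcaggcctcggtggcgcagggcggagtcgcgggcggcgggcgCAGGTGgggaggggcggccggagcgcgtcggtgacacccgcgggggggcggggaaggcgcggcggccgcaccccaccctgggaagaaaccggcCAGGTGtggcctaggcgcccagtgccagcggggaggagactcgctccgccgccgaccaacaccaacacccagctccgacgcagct
CRB3, chr19:6464021-6464270, plus strand: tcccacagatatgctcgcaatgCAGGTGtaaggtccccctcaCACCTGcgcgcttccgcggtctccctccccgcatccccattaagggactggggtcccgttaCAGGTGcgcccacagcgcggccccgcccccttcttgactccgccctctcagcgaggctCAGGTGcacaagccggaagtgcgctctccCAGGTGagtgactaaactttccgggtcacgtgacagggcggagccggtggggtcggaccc
KRT5, chr12:52520395-52520644, minus strand: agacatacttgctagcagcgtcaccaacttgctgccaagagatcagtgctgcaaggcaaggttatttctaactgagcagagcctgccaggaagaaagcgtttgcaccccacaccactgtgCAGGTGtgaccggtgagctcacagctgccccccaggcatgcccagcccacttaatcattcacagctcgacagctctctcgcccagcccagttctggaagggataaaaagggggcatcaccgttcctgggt
CLDN7, chr17:7263214-7263463, minus strand: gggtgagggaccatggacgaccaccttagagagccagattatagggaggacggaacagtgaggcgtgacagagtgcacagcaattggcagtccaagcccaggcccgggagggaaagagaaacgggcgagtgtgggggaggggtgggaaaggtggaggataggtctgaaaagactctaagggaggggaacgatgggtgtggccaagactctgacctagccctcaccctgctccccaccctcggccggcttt
DSP had matches starting at -178 and -85, KRT5 at -130, and CRB3 at -228, -208, -147, -89 and -60. CLDN7, whose level was 6.29 lower on the log2 scale (SE 0.23), had none. This motif is held by 4781 (17.5%) of all 27305 promoters, and CATCTG or its complement CAGATG, an E-box bound by TWIST proteins, by 3342 (12.2%). The table has promoters for 10385 of the 17848 tested genes, 58.2%, too few to compare lists. Of these 10385 promoters 1663 (16.0%) held the first motif and 841 (8.1%) the second. CDH1 is not in the table. A match is a description of the sequence, not evidence of binding.

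**Figure D2:**
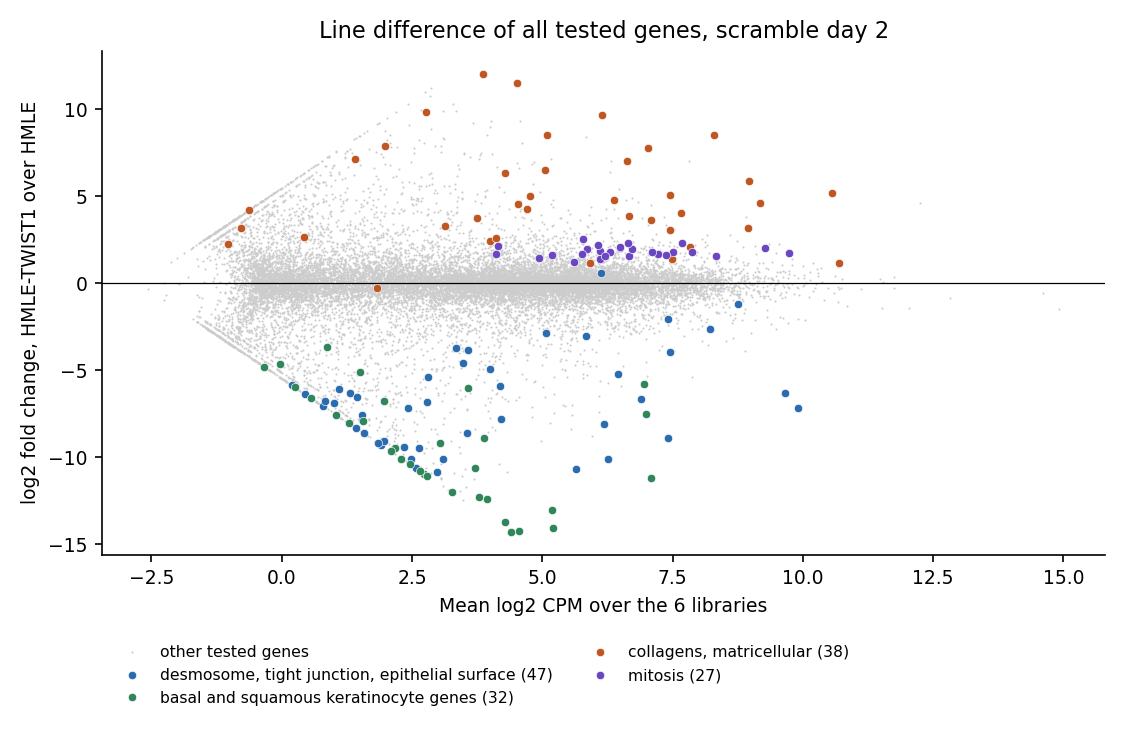
Each dot is a tested gene, with its mean log2 CPM over the 6 libraries on the horizontal axis and the log2 fold change of HMLE-TWIST1 over HMLE on the vertical axis; colours mark 47 epithelial junction and surface genes, 32 basal and squamous genes, 38 collagen and matricellular genes and 27 mitosis genes. Junction, keratin and matrix genes lie far from 0, the mitosis genes in a narrow band with a median of 1.79.

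The largest falls among abundant genes were keratins. KRT15, KRT13, KRT6A, KRT16, KRT14 and KRT5 filled the first 6 of the 10 places, ahead of COL17A1, DSG3, SERPINB7 and DSC2. KRT5, the basal type II keratin, stood at 6526, 6630 and 6537 CPM in HMLE and at 2.84, 2.23 and 2.96 in HMLE-TWIST1 (-11.19, SE 0.09, adjusted p = 1.03e-21). Its partner KRT14 went from 3195, 3361 and 3382 to 0.308, 0.144 and 0.345 CPM (adjusted p = 4.09e-13). KRT15, a keratin of basal stem cells, had 107147 reads in HMLE and 0 in HMLE-TWIST1, at least 44000-fold lower. All 37 listed keratin genes together took 2.58 ± 0.0659% of reads in HMLE and 0.0235% in HMLE-TWIST1, and all 28 tested were lower (without HMLE replicate 1, 24 passed the read filter and 24 were lower). KRT6A, KRT6B and KRT6C, and KRT14, KRT16 and KRT17, are near-identical in sequence, so reads may be split wrongly among them or left out. A wrong split does not touch the sums, but reads left out would lower them.

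All 6 tested keratins of simple epithelium were lower too (median -3.79), but several persisted. KRT8 was lower by only 1.48 (SE 0.07; 224.4 ± 17.2 against 80.0 ± 2.17 CPM), KRT18 by 2.14 (SE 0.09) and KRT7 by 2.77 (SE 0.07). In RPKM, KRT7 at 27.5 and KRT8 at 16.0 were the highest of the 37 keratin genes in HMLE-TWIST1, against 0.624 for KRT5; processed copies of KRT8 in the genome make its reads uncertain.

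All 24 tested genes of squamous differentiation were lower (median -8.47), among them the protease inhibitors SERPINB5, at 1645, 1757 and 1718 CPM in HMLE and 10.7, 8.72 and 8.82 in HMLE-TWIST1 (-7.49, SE 0.07), and SERPINB3, with 0 reads in HMLE-TWIST1 and at least 4747-fold lower. SERPINB3 shares much of its sequence with SERPINB4, so its reads are uncertain. KRT13, a keratin of moist squamous epithelium, had 116674 reads against 1 (ratio 143700, 95% interval 25800 to 5678000). Hemidesmosomes, which fix basal cells to the basement membrane, followed: 9 of 10 tested members were lower. COL17A1, a transmembrane collagen, fell by 10.83 on the log2 scale (SE 0.27) and the integrin ITGA6 by 5.34 (SE 0.07). PLEC, for the linker plectin that many cells use, was the exception, higher at 0.29 (SE 0.05).

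**Figure D3:**
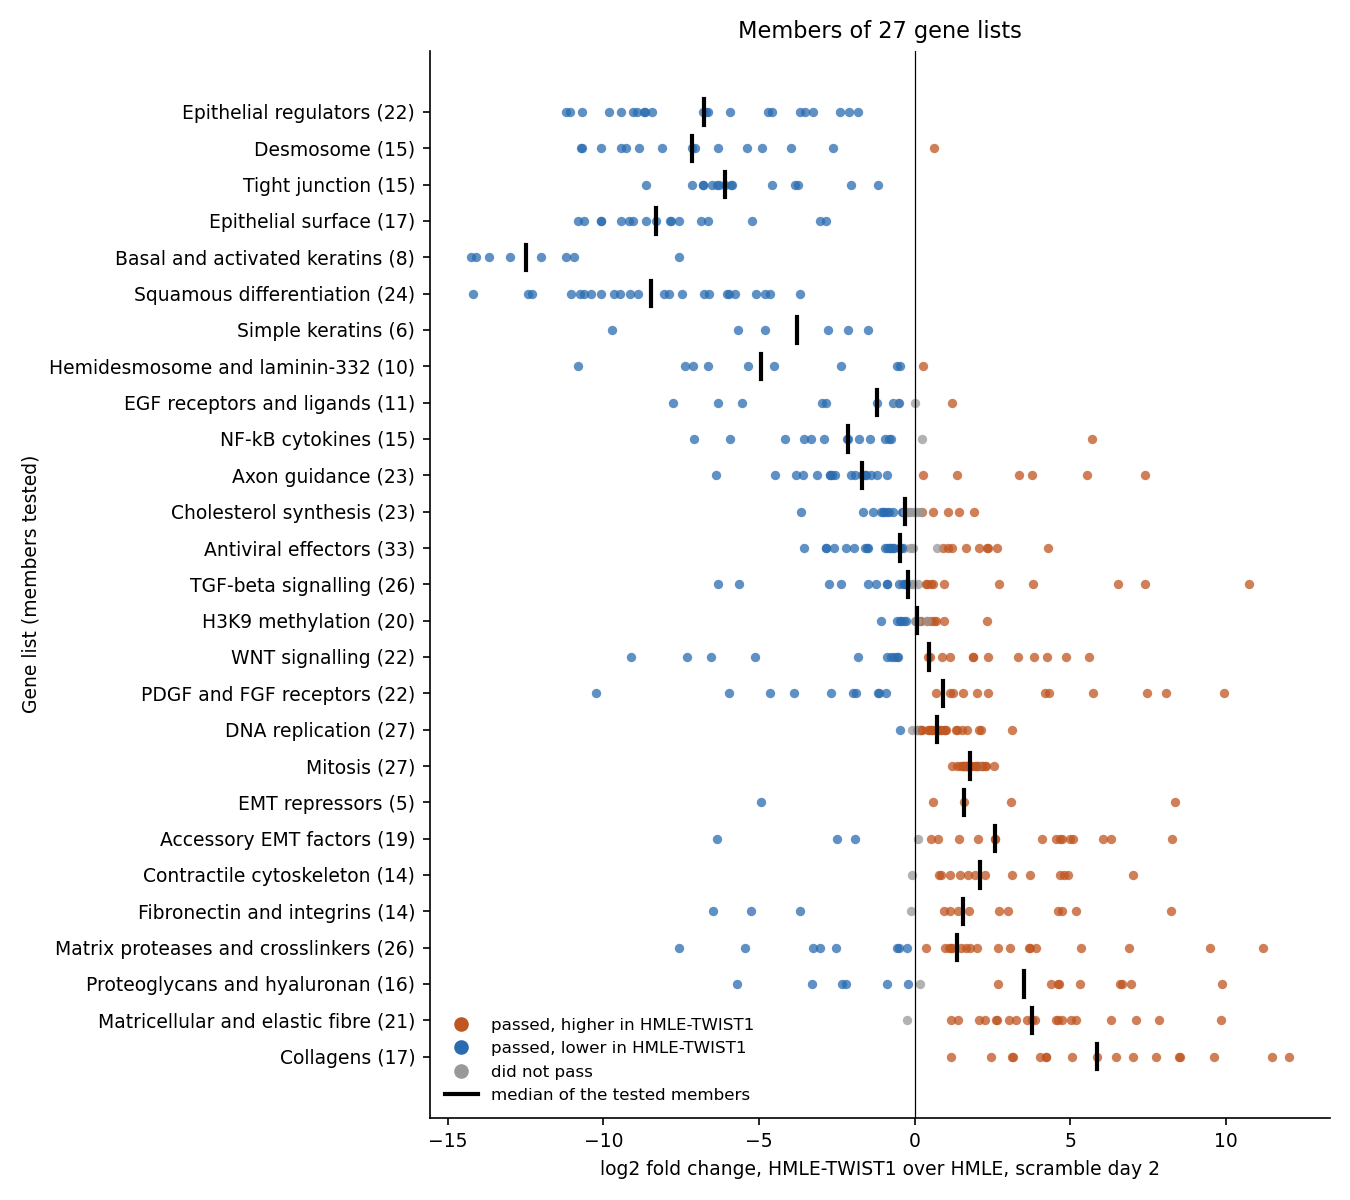
Log2 fold change of HMLE-TWIST1 over HMLE for each tested member of 27 gene lists; dots are genes, grey where they did not pass the test, and black bars are list medians. Epithelial regulators, tight junction, surface and keratin genes all lie below 0, desmosome and hemidesmosome genes all but 1 each, and collagens of the list all above; signalling lists have members on both sides.

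On the mesenchymal side, the cytoskeleton changed toward vimentin and contractile proteins, with 13 of 14 tested genes higher and 0 lower (median 2.11). VIM, the mesenchymal intermediate filament, stood at 17.8, 21.4 and 19.7 CPM in HMLE and at 2640, 2586 and 2539 in HMLE-TWIST1 (7.04, SE 0.06, adjusted p = 3.9e-23). ACTA2, smooth muscle actin, went from 11.3 ± 0.652 to 100.4 ± 3.75 CPM (3.14, SE 0.07), and the actin-binding CALD1 from 297.9 ± 4.31 to 1437 ± 32.8 (2.27, SE 0.04). TPM1, a tropomyosin present in both lines, did not pass (-0.09, SE 0.05, adjusted p = 0.142). Among intermediate filaments, VIM stood at 521 RPKM in HMLE-TWIST1, where KRT5 and KRT14 had stood at 1529 and 1452 RPKM in HMLE.

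Of the 17 tested collagen chains of connective tissue on the list, 17 were higher, with a median of 5.88. Over all 34 tested COL genes 24 were higher and 9 lower, COL17A1 among the latter. The sum of the 17 went from 389 to 415 CPM in HMLE to 21280 to 21840 in HMLE-TWIST1. COL3A1, a fibrillar collagen, stood at 16.1, 15.1 and 17.8 CPM in HMLE and at 6130, 5984 and 5960 in HMLE-TWIST1 (8.52, SE 0.06, adjusted p = 2.52e-24). COL6A2, which forms beaded filaments, went from 0.266, 0.311 and 0.249 to 1222, 1251 and 1204 CPM (11.50, SE 0.16), and its partners COL6A1 and COL6A3 were higher at 8.53 (SE 0.23) and 7.75 (SE 0.06). COL1A2, a chain of type I collagen, was 798.8-fold higher and its partner COL1A1 58.7-fold higher, because HMLE already held COL1A1 at 59.0, 69.6 and 67.4 CPM but COL1A2 only at 2.13, 2.87 and 2.16. COL6A2, COL1A2, COL6A1, COL3A1 and COL6A3 were 5 of the 10 largest rises among abundant genes. The other 5 were ZEB1, the platelet growth factor receptor PDGFRB, the membrane proteins GPM6B (9.34, SE 0.20) and CADM3 (9.31, SE 0.20), and the ubiquitin ligase RNF150 (7.44, SE 0.20).

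Of 21 matricellular and elastic fibre genes 20 were higher and 0 lower (median 3.77), the exception EFEMP2 at -0.26. THBS1, thrombospondin 1, stood at 231.6, 254.2 and 259.3 CPM in HMLE and at 9198, 9174 and 8959 in HMLE-TWIST1 (5.20, SE 0.05). SPARC, a collagen-binding glycoprotein, was higher at 4.60 (SE 0.05) and the microfibril protein FBN1 at 4.75 (SE 0.06). FN1, fibronectin, was the gene with most reads in each HMLE-TWIST1 library, 2.56, 2.52 and 2.41% of them, against 0.0846, 0.0974 and 0.0931% in HMLE (log2 fold change 4.61, SE 0.05, adjusted p = 3.33e-22).

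Integrins, the matrix receptors, moved in both directions. Of 14 tested fibronectin and integrin genes 10 were higher and 3 lower. ITGA11, a collagen receptor, stood at 0.266, 0.0776 and 0.332 CPM in HMLE and at 110.6, 102.6 and 110.4 in HMLE-TWIST1 (8.24, SE 0.34), ITGA10, another collagen receptor, was higher at 5.19, and the shared chain ITGB1 at 1.75 (SE 0.05). The 3 lower members were ITGB6 (-6.49, SE 0.37), ITGB8 (-5.25) and ITGA2 (-3.69), and ITGA3 did not pass. Among proteoglycans and hyaluronan genes 9 of 16 were higher and 6 lower. Syndecans exchanged places: SDC1, the epithelial form, fell by 5.71 (SE 0.07) and SDC2, the mesenchymal form, went from 0.0888, 0.155 and 0.332 to 309.7, 309.9 and 314.1 CPM (9.89, SE 0.25). CD44, the hyaluronan receptor often used to mark cells after the transition, was lower in HMLE-TWIST1, at 305.4, 296.9 and 295.2 CPM against 1455, 1531 and 1562 in HMLE (-2.34, SE 0.05, adjusted p = 1.69e-18). These are reads per gene, so CD44 splice forms were not resolved.

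Matrix proteases and crosslinkers were mixed, 18 of 26 higher and 8 lower (median 1.36). ADAMTS2, which trims fibrillar collagens, had 0 reads in HMLE and 362.1, 353.3 and 349.3 CPM in HMLE-TWIST1, at least 4286-fold higher. PCOLCE, an enhancer of collagen trimming, was higher at 6.91 (SE 0.14) and the gelatinase MMP2 at 3.73 (SE 0.11). Lower were MMP7, a protease of epithelial glands (-7.58, SE 0.12), and the inhibitor TIMP3 (-3.03, SE 0.05). MMP14, the membrane protease that activates MMP2, was 0.57 lower.

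In a list of PDGF, FGF and other growth factor receptors, ligands and binding proteins, 12 of 22 tested were higher and 10 lower (median 0.92). PDGFRB stood at 0.977, 1.79 and 1.33 CPM in HMLE and at 416.8, 391.9 and 389.7 in HMLE-TWIST1 (8.08, SE 0.34, adjusted p = 1.88e-08), and PDGFRA had 2 reads against 8929 (ratio 3624, 95% interval 1003 to 29930). Among FGF receptors FGFR1 was higher (7.49, SE 0.21) while FGFR2 (-2.69, SE 0.09) and FGFR3 (-5.97, SE 0.12), the forms of epithelia, were lower. Of 11 tested EGF receptors and ligands 8 were lower and 1 higher (median -1.21). EGFR stood at 1313, 1487 and 1356 CPM in HMLE and at 195.2, 194.6 and 186 in HMLE-TWIST1 (-2.85, SE 0.05, adjusted p = 7.27e-19). Its ligand TGFA was lower at -7.77 (SE 0.19) and its partner ERBB3 at -6.33 (SE 0.17). The higher member was NRG1, a ligand of ERBB3, at 41.1 ± 1.45 against 17.8 ± 2.58 CPM (1.21, SE 0.11). AXL, a receptor kinase of invasive cells, was higher at 2.37 (SE 0.05).

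Members of the TGF-beta signalling list went both ways: of 26 tested, 10 passed as higher (38.5%) and 13 as lower (50.0%). Over all genes these shares were 33.5% and 35.1%, and the median of the list was only -0.20. With libraries scaled to total reads 11 were higher and 10 lower (median -0.038), and in DMSO cells 12 and 8. No direction is therefore read from the list. The ligand TGFB1 did not pass (78.3 against 84.1 CPM, 0.10). Binding proteins and co-receptors had the largest differences: TGFBR3, which presents TGF-beta, was higher at 7.40 (SE 0.30), the BMP antagonist GREM1 had 1 read against 13358 (ratio 10840, 95% interval 1946 to 428300), and FSTL1, a BMP-binding protein, was at 1772, 1810 and 1824 against 127, 134.6 and 125.2 CPM (3.80, SE 0.05). SMAD7, the feedback inhibitor, was lower (-2.37, SE 0.15). WNT genes were likewise split, 12 of 22 higher and 10 lower, and the ligands parted: WNT5A stood at 18.0, 16.9 and 15.6 CPM in HMLE and at 317.3, 337.8 and 320.6 in HMLE-TWIST1 (4.26, SE 0.07) with its receptor ROR2 higher at 5.61 (SE 0.15), while WNT10A (-9.11, SE 0.21) and WNT4 (-7.31) were lower. In the Notch pathway 5 of 11 were lower (45.5%) and 2 higher (18.2%). The receptor NOTCH1 (-2.63, SE 0.07) and the ligand JAG1 (-2.77, SE 0.06) were lower, and NOTCH3, a receptor of smooth muscle and pericytes, was higher (0.75).

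Inflammatory genes were lower in the TWIST1 line. Of 15 tested NF-kB targets and cytokines 13 were lower and 1 higher (median -2.15). IL1A, an alarm cytokine of keratinocytes, stood at 51.9, 54.1 and 53.6 CPM in HMLE and at 0.185, 0.216 and 0.345 in HMLE-TWIST1 (-7.08, SE 0.19), and the inhibitor NFKBIA, itself a target, was lower at -2.15 (SE 0.06). The exception was the chemokine CCL2, with 1 read against 400 (ratio 324.7, 95% interval 57.9 to 12860). Antiviral genes were mixed, 20 of 33 lower and 9 higher (median -0.48). IFITM3 was higher at 2.06 (SE 0.09), though its reads may be shared with IFITM1 and IFITM2. Of 15 antigen presentation genes 9 were lower and 4 higher, with TAP2, a peptide transporter, at -1.57 (SE 0.09).

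Genes of mitosis were higher together, 26 of 27 with 0 lower (median 1.79). MKI67, the proliferation marker, stood at 484.8, 453.8 and 467.5 CPM in HMLE and at 1499, 1558 and 1541 in HMLE-TWIST1 (1.71, SE 0.05, adjusted p = 5.99e-16). TOP2A, which untangles chromosomes, was at 344.6, 298.2 and 281.6 against 1222, 1235 and 1293 CPM (2.02, SE 0.14). The member that did not pass was CENPE, a kinetochore motor, with 115.8, 30.7 and 24.6 against 210.6, 103.4 and 275.1 CPM (2.03, SE 0.90, adjusted p = 0.074). HMLE replicate 1 was the high one, and without it 27 of 27 passed. Of 58 tested replication-dependent histone genes, whose RNA is made in S phase, 52 were higher and 1 lower (median 1.65). The lower one was HIST3H2A (-0.59), and near-identical copies make single histone genes uncertain. Histone genes took 0.406% of reads in HMLE-TWIST1 and 0.117% in HMLE. Of 27 DNA replication genes 23 were higher and 1 lower, a smaller median of 0.74, led by the loading factor MCM10 (3.14, SE 0.08).

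A list of cell cycle inhibitors, p53 targets and D cyclins had 16 of 24 lower and 6 higher (median -0.39). CDKN1A, the inhibitor p21, stood at 367.2, 418.4 and 432.2 CPM in HMLE and at 98.7, 93.3 and 91.7 in HMLE-TWIST1 (-2.10, SE 0.06, adjusted p = 7.65e-16). CDKN2B was lower at -3.03 (SE 0.06). CCND1, cyclin D1, which promotes entry into the cycle, was lower too (-4.76, SE 0.07), and CDKN2C was higher (2.30, SE 0.09).

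Both enzymes that the study targets were higher in HMLE-TWIST1. SUV39H2 stood at 9.23, 8.31 and 8.05 CPM in HMLE and at 45.0, 43.4 and 43.3 in HMLE-TWIST1 (2.35, SE 0.13), and SUV39H1 at 6.84, 6.91 and 4.98 against 13.8, 11.3 and 11.5 (0.96, SE 0.19). The groups did not overlap for either gene. Over the 20 genes of H3K9 methylation 7 were higher (35.0%) and 6 lower (30.0%), near the 33.5% and 35.1% over all genes. The median was 0.07, and with libraries scaled to total reads the counts were 11 and 4. The demethylase KDM3A was lower at -1.07 (SE 0.07) and the heterochromatin protein CBX1 higher at 0.70 (SE 0.06). Among 26 other chromatin enzymes 13 were higher and 9 lower, with the methylcytosine oxidase TET1 higher at 2.47 (SE 0.10) and the Polycomb protein BMI1 at 1.99 (SE 0.11), and the deacetylase HDAC9 lower at -3.36 (SE 0.14).

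Metabolic lists moved little as groups. Over all genes 33.5% were higher and 35.1% lower, beside 21.7 and 47.8% for cholesterol synthesis. For glycolysis these shares were 50.0 and 31.8%, and for NRF2 and glutathione genes 52.6 and 42.1%. In cholesterol synthesis 5 of 23 were higher and 11 lower (median -0.32): INSIG1, the sterol sensor, was higher at 1.93 (SE 0.05) and TM7SF2, a sterol reductase, lower at -3.66 (SE 0.16). Among 22 glycolysis genes 11 were higher and 7 lower, and the glucose transporters parted, SLC2A1 at -1.98 (SE 0.06) and SLC2A3 at 2.17 (SE 0.12). Of 19 NRF2 and glutathione genes 10 were higher and 8 lower, with GSTP1, a glutathione transferase, at -3.31 (SE 0.05) and NQO1, a quinone reductase, at 1.85 (SE 0.05). Of 14 YAP genes 7 were higher and 6 lower. YAP1 itself was lower (-2.12, SE 0.05) and its target ANKRD1 higher (4.03, SE 0.19). For cytosolic ribosomal proteins 44 of 78 were lower and 4 higher, but with a median of only -0.31, and with libraries scaled to total reads 28 were lower.

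Whether the line difference held later was asked with scramble cells of day 4, after a wash and 2 more days in fresh medium, in 3 libraries a line. In a fit of 24 libraries, 73.7% of 18757 genes differed between the lines at day 4 (38.6% higher in HMLE-TWIST1), and the difference itself changed between days for 3132 genes upward (16.7%) and 3321 downward (17.7%). With scaling to total reads the share of upward calls was 72.9% in place of 48.5%, and the median change over all genes 0.191 in place of -0.004. The 2 line differences share no library. The change between days uses the day 2 libraries described above, so values of both days are given side by side.

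Proliferation genes drew further apart. All but 1 of the 27 mitosis genes changed upward (26, with 0 downward, median change 2.05), and 51 of 58 histone genes (median 1.77). MKI67 stood at 452 CPM in HMLE and 1533 in HMLE-TWIST1 at day 2, and at 82.9 and 1233 at day 4, a change of 2.13 (SE 0.09, adjusted p = 1.04e-15). HIST1H3C, the largest upward change among genes averaging a log2 CPM of 4 or more over the 6 scramble libraries of day 2, went from 40.9 to 4.78 CPM in HMLE and from 184.9 to 299 in HMLE-TWIST1 (3.75, SE 0.20), followed by HIST1H2AI (3.58), HIST1H3F (3.21), HIST1H2AJ (3.19) and HIST1H2BO (3.13). CDKN1A stood at 391.2 and 1250 CPM in HMLE at days 2 and 4, and at 94.6 and 89.5 in HMLE-TWIST1 (-1.76, SE 0.09). At day 4 MKI67 and HIST1H3C were lower than at day 2 in HMLE, while HIST1H3C was higher in HMLE-TWIST1. Ribosomal protein genes also changed upward, 69 of 78 (median 0.94): RPS6 stood at 1692 and 1532 CPM at day 2, and at 990.1 and 1978 at day 4.

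In the other direction were genes of matrix and lipids. All 21 cholesterol genes that passed changed downward (of 23, median -1.13), and INSIG1 was at 75.6 and 298.9 CPM at day 2 but at 53.8 and 49.2 at day 4 (-2.10, SE 0.10). Of 17 collagens 9 changed downward and 4 upward, beside 17.7% and 16.7% of all genes. The largest downward changes among genes of that abundance were TNC, tenascin C (-2.87, SE 0.09), at 107.3 and 472.6 CPM at day 2 and 286.1 and 172.2 at day 4; the tubulin TUBA1A (-2.75); the membrane protein TMEM45A (-2.47); the cytokine receptor IL7R (-2.45); and the prostaglandin enzyme PTGS2 (-2.45), which was lower in HMLE-TWIST1 on both days. TNC was thus higher in HMLE-TWIST1 at day 2 and lower at day 4. VIM (1.94, SE 0.23) and ZEB2 (2.73, SE 0.11) changed upward and FN1 (-2.02, SE 0.11) downward. For CDH1, CDH2, ZEB1, KRT5 and SNAI2 the change with day did not pass (adjusted p = 0.773, 0.474, 0.831, 0.5 and 0.906).

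**Figure D4:**
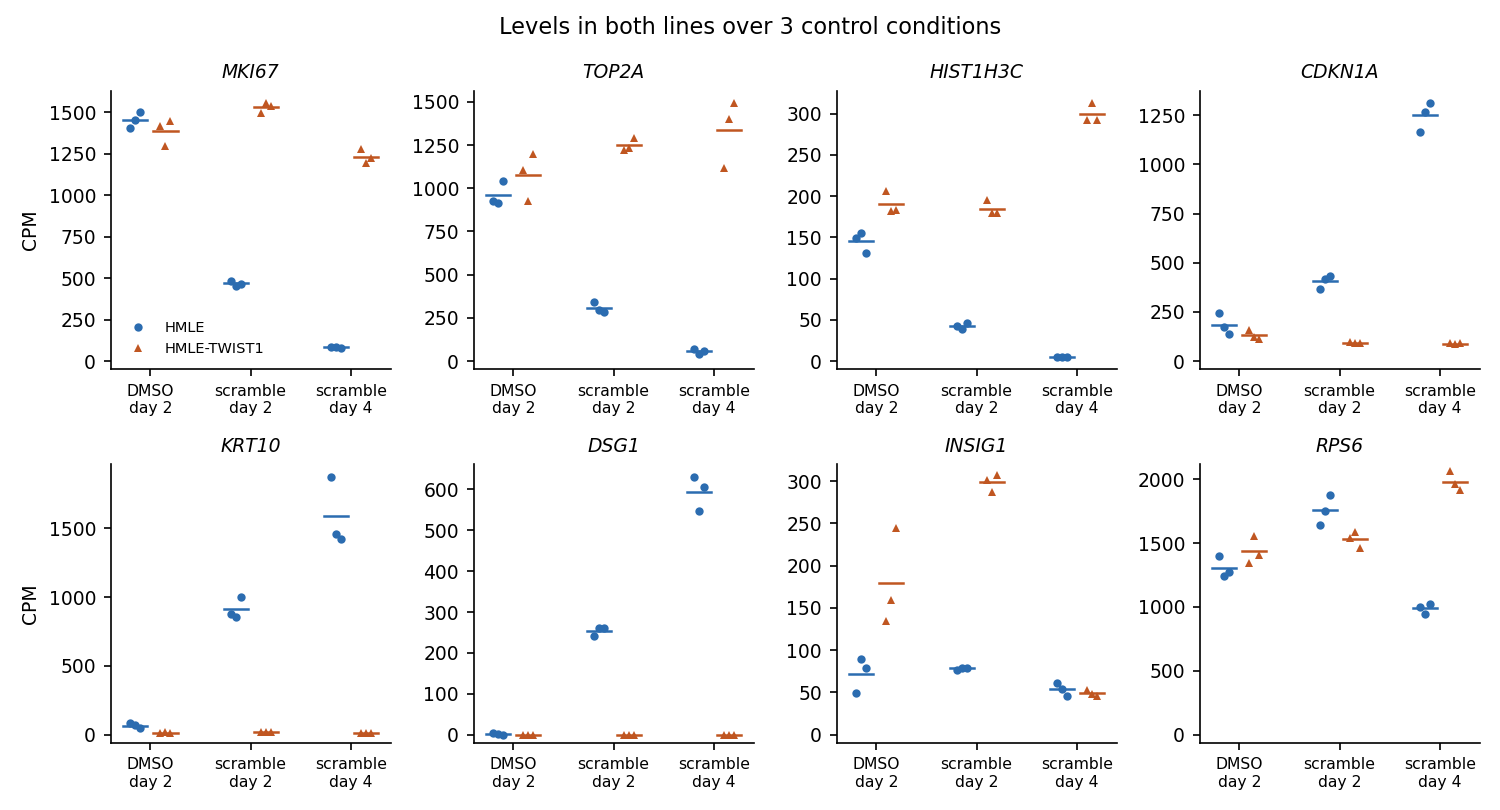
Level in CPM of 8 genes in HMLE and HMLE-TWIST1 at DMSO day 2, scramble day 2 and scramble day 4; points are libraries and short bars group means, each condition scaled in its own fit. In HMLE, MKI67 is at 1456 CPM with DMSO, 468.7 at scramble day 2 (472.7 in the fit with DMSO, 452.3 in that with day 4) and 82.9 at day 4, and in HMLE-TWIST1 at 1388, 1533 and 1233; the means of KRT10 and DSG1 in HMLE are in the opposite order.

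The line difference in scramble cells was also set beside that in DMSO cells of day 2, in a joint fit of 12 libraries. DMSO and scramble libraries come from separately processed parts of the table, so treatment and batch cannot be told apart in either line alone. A shift shared by both lines cancels in the difference of differences, which is what is tested, where both lines have reads enough to show it. For a gene almost without reads in HMLE-TWIST1 it does not cancel. The tested value is then in effect HMLE scramble against HMLE DMSO, a contrast that treatment and batch share. In DMSO cells 62.2% of 17876 genes differed between the lines (30.5% higher in HMLE-TWIST1). The signed line difference lay further toward HMLE-TWIST1 in scramble cells for 2388 genes (13.4%) and further toward HMLE for 2887 (16.2%), 29.5% in either direction. With scaling to total reads the share of upward calls was 65.5% in place of 45.3%, and the median over all genes 0.107 in place of -0.039.

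In DMSO cells proliferation genes hardly separated the lines. Mitosis genes had a median line difference of 0.05 in DMSO cells and 26 of 27 changed upward in scramble cells (0 downward, median 1.72), and histone genes had 0.07 in DMSO cells, with 52 of 58 upward (median 1.56). MKI67 stood at 1456 CPM in HMLE and 1388 in HMLE-TWIST1 with DMSO, a difference that did not pass (-0.07, adjusted p = 0.272), and at 472.7 and 1542 with the scrambled duplex (change 1.78, SE 0.08, adjusted p = 3.54e-10). TOP2A did likewise, at 960.3 and 1078 CPM with DMSO and 310.8 and 1258 with scramble (change 1.86, SE 0.13). CDKN1A was at 184.3 and 131.3 CPM with DMSO and at 409.4 and 95.2 with scramble (-1.64, SE 0.28). MKI67 and TOP2A were thus lower in HMLE scramble cells than in HMLE DMSO cells, a contrast that treatment and batch share.

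Squamous and desmosomal genes formed the other block. Squamous genes together stood at 28.2 to 31.3 CPM in HMLE-TWIST1 scramble cells, against 10270 to 10630 in HMLE. For members almost without reads in HMLE-TWIST1 a shift shared by both lines would not cancel. Of 24 squamous genes 19 changed downward and 0 upward (median -1.88; 12 downward with precision weights), and of 15 desmosome genes 12 and 0 (median -2.04). KRT10, a keratin of suprabasal layers, stood at 65.2 CPM in HMLE with DMSO and 919.8 with scramble, and at 15.0 and 16.8 in HMLE-TWIST1 (-3.70, SE 0.26). DSG1, a desmosomal cadherin of the same layers, was at 1.68 CPM in HMLE with DMSO and 256.1 with scramble, and KRT1, the partner of KRT10, at 1.42 and 162.6, with 0 reads of either gene in HMLE-TWIST1 scramble cells. Beside KRT10, the largest downward changes among genes averaging a log2 CPM of 4 or more, which leaves out DSG1 and KRT1, were KRT16 (-3.84, SE 0.32), whose HMLE-TWIST1 scramble libraries held 1 read so that the value depends on the prior count (adjusted p = 0.15 with precision weights), GPNMB, a membrane protein of macrophages and pigment cells (-3.54), ECM1, a skin matrix protein (-3.01), and SERPINB7 (-2.92).

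The largest upward changes among genes averaging a log2 CPM of 4 or more were KIAA0040 (4.75, SE 0.28), at 47.3 and 2.87 CPM with DMSO and 23.9 and 39.2 with scramble, the apoptosis inhibitor BIRC3 (3.97, SE 0.23), the clock repressor BHLHE41 (3.43, SE 0.20), and the mitotic genes SGOL2 (4.02, SE 1.15) and HMMR (3.08, SE 0.57). BIRC3 stood at 1658 CPM with DMSO and 162 with scramble in HMLE, against 8.70 and 13.5 in HMLE-TWIST1. SGOL2 was uneven in HMLE scramble cells, at 35.5, 6.13 and 2.16 CPM, and its value without HMLE replicate 1 was 5.10 (adjusted p = 0.000173); leaving out any of 10 other libraries ended its call. Of 14 NF-kB genes 9 changed upward and 0 downward (median 0.91; 5 upward with precision weights), and of 32 antiviral genes 11 and 3. The change between treatments did not pass for ZEB1 (0.33, adjusted p = 0.53), SNAI2 (0.15, adjusted p = 0.386) or VIM (-0.56, adjusted p = 0.251). Without HMLE scramble replicate 1 ZEB1 passed (0.65, adjusted p = 0.0101), and without HMLE DMSO replicate 3 VIM did (-0.80, adjusted p = 0.0371). TWIST1 changed by -1.27 (adjusted p = 3.87e-06), from a line difference of 6.69 with DMSO to 5.42 with scramble.

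**Figure D5:**
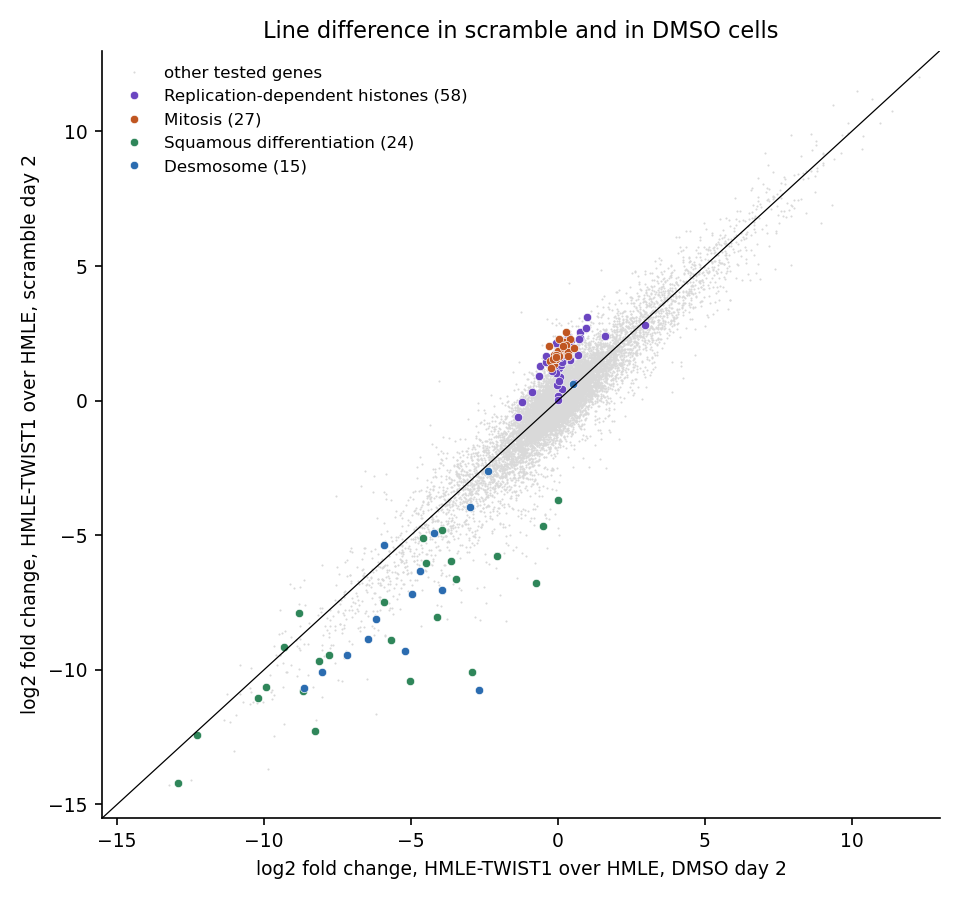
Log2 fold change of HMLE-TWIST1 over HMLE in DMSO day 2 cells (horizontal) and scramble day 2 cells (vertical), from different libraries; each dot is a gene, colours mark 58 histone, 27 mitosis, squamous and desmosome genes, and the line marks equal values. Histone and mitosis genes sit mostly near 0 in DMSO cells and above the line, squamous and desmosome genes mostly below it.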

How the data were processed

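RNA-seq libraries of total RNA, depleted of ribosomal RNA with a stranded kit, were made from Trizol extracts treated with DNase, per the labels' protocols. STAR, HTSeq and the build hg19 are named in the submitters' processing notes, with no versions. The authors deposited log2 RPKM values per gene; the values themselves show that a small number of reads was added before the logarithm. Reads were recovered from these values and the gene lengths: 100.0% of values came out whole within 0.0001 of a read, with an offset of 2.0 reads in the duplex libraries and 2.029 in the DMSO libraries. A further table with 81 value columns without names was not used.

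From the recovered reads, log2 CPM was computed with trimmed-mean scaling (trims of 30 and 5%) and a prior count of 2. Genes needed the equivalent of 10 reads in 3 libraries and 15 in all. limma 3.58.1 (R 4.3.3, intensity trend, robust) was fitted to 12 libraries for the line difference at day 2, 24 for the change by day and 12 for the change by treatment, with Benjamini-Hochberg adjusted p below 0.05 as the call. The script was tested on simulated data with far fewer and smaller changes than here, which does not test the scaling under differences this broad. The last model joins parts of the table processed separately, over shared gene symbols. Single reads, ratios and limits of 3 reads cover counting error only.

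Named genes are TWIST1; the 10 largest rises and 10 largest falls among genes without overlapping libraries whose log2 CPM averaged 4 or more; 4 members per list and direction with the smallest adjusted p, and members that passed against their list; the 5 largest called changes per direction by day and by treatment, with the same minimum of 4; and the 5 highest RPKM per line. TOP2A, CENPE, COL1A1, CLDN7, CRB3, TJP1, TFAP2A, TPM1, ITGA10, ITGA11, SDC2, MMP2, TGFB1, TBX2, FOXC2, CTNNA1, EFEMP2, HIST3H2A, KRT1, DSG1 by treatment and RPS6 were named after their values were seen, as were the genes with reads in 1 line only. The comparison and the 44 gene lists were chosen with earlier results of these data known. Alternatives tried were other prior counts, scalings, filters and weights, fewer libraries, a replicate block, the deposited log2 RPKM, and each replicate left out. Same-numbered replicates of the lines had correlations of deviations of -0.079, 0.01 and -0.114, and differently numbered ones -0.076 to 0.146. So few libraries cannot show whether the numbers pair the samples, and the main fits use no pairing.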

Additional observations from a re-analysis of the deposited data

Results flagged for a closer look

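The differences below were picked out because the change in the line difference itself passed limma's interaction test (Benjamini-Hochberg adjusted p below 0.05). Between day 2 and day 4 of the scrambled duplex 3132 genes changed upward and 3321 downward. Upward were the histone genes HIST1H3C (3.75 on the log2 scale), HIST1H2AI (3.58), HIST1H3F (3.21), HIST1H2AJ (3.19) and HIST1H2BO (3.13), the proliferation genes MKI67 (2.13) and TOP2A (2.50), and the ribosomal protein gene RPS6 (1.14). Downward were TNC (-2.87), TUBA1A (-2.75), TMEM45A (-2.47), IL7R (-2.45), PTGS2 (-2.45), INSIG1 (-2.10), CDKN1A (-1.76) and DSG1 (-1.28).

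Between scramble and DMSO cells of day 2 the line difference was higher for 2388 genes and lower for 2887. Higher were KIAA0040 (4.75), SGOL2 (4.02), BIRC3 (3.97), BHLHE41 (3.43), HMMR (3.08), TOP2A (1.86) and MKI67 (1.78). Lower were DSG1 (-8.06), KRT16 (-3.84), KRT10 (-3.70), GPNMB (-3.54), ECM1 (-3.01), SERPINB7 (-2.92), CDKN1A (-1.64) and RPS6 (-0.33). The HMLE-TWIST1 scramble libraries held 0 reads of DSG1 and 1 of KRT16, so these values depend on the prior count. A shift shared by both lines would not cancel in them. SGOL2 and HMMR were uneven over the HMLE scramble libraries, at 35.5, 6.13 and 2.16 and at 45.5, 20.3 and 11.9 CPM, replicate 1 the highest in both. All these differences share the scramble libraries of day 2. Groups of 3 libraries are too small for a test of single outlying libraries.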

How the results depend on the processing

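Single genes were followed through the alternatives: the named genes for the line difference, 25 genes for the change by day and 19 for that by treatment. No called gene among these reversed its direction. Over all tested genes, 1 gene called in both fits took the opposite direction, for the change by treatment with a prior count of 0.5. With scaling to total reads the median over all genes turned from -0.006 to 0.153 for the line difference, and the medians of both changes turned too. For the line difference, 5988 genes were higher and 6267 lower, against 7322 and 5180 with scaling to total reads, 6371 and 5906 from the deposited log2 RPKM, and 5536 to 5939 and 5703 to 5972 with 1 library left out. With scaling to total reads the change by day had 4908 upward and 1824 downward calls, in place of 3132 and 3321. The change by treatment then had 3575 upward and 1886 downward calls, in place of 2388 and 2887. Leaving out 1 library gave 2830 to 3099 upward and 2980 to 3171 downward calls by day, and 1992 to 2495 and 2284 to 3018 by treatment. The replicate block gave 6075 and 6293 calls for the line difference, 3072 and 3245 by day, and 2338 and 2851 by treatment. Scaling to total reads moved several of the list counts given. Among them were the lower ribosomal protein genes, from 44 to 28, and the higher H3K9 genes, from 7 to 11. Others were the higher PCDHG genes, from 14 to 19, and the higher ZNF genes, from 216 to 263. Downward cholesterol genes by day went from 21 to 17. By treatment, precision weights moved the downward squamous genes from 19 to 12 and the upward NF-kB genes from 9 to 5. The change by treatment of SGOL2 lost its call when any library but HMLE replicate 1 or 3 of the scramble group was left out (3.85 to 4.14), and that of KRT16 with precision weights (-4.47, adjusted p = 0.15). RPS6 lost its call by treatment with scaling to total reads (-0.18, adjusted p = 0.125) and DSG1 by day with precision weights (-1.20, adjusted p = 0.634). SNAI2 by treatment gained one with scaling to total reads (0.30, adjusted p = 0.0428) and VIM with precision weights (-0.61, adjusted p = 0.0367). Of the named genes 15 changed their call for the line difference under at least 1 alternative, IFITM1 among those mentioned above. The causes were not tested. Depth limits statements on genes at 0 reads in a line: 3 reads over its 3 libraries are the smallest level that could be told from 0.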

Other observations

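Some 251 genes with a mean of at least 1 CPM in HMLE had 0 reads in all 3 HMLE-TWIST1 libraries, and 193 the converse; at 10 CPM the counts were 85 and 35. Beyond the keratins, the former included A2ML1, a protease inhibitor of the epidermis, at 760.7, 897.1 and 855 CPM and at least 12500-fold lower in HMLE-TWIST1, and CASP14, a protease of cornifying cells, at least 8463-fold lower. The latter included CNR1, a cannabinoid receptor, at 308.2, 305.9 and 298 CPM and at least 3670-fold higher, and C7, a complement component, at least 1668-fold higher. These genes were chosen because they are at 0 in one line, so the folds are a description.

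Clustered protocadherins, adhesion proteins best known from neurons, were higher or did not pass at day 2: 11 of 13 tested PCDHB genes were higher and 0 lower (median 1.63), and 14 of 22 PCDHG genes and 0 (median 0.78). By day 16 of the 22 PCDHG genes changed downward and 0 upward (median -1.01), and at day 4 6 were higher and 7 lower. PCDHG genes share exons, so their reads may be split wrongly. Of 23 axon guidance genes 17 were lower and 6 higher (median -1.69). Among the higher ones were the ligand SLIT3, at 0.622, 0.776 and 0.746 CPM in HMLE and 151.2, 148.2 and 143.8 in HMLE-TWIST1 (7.42, SE 0.19), and the semaphorin receptors PLXND1 (5.53) and NRP1 (3.35). Zinc finger genes with ZNF symbols leaned upward by a small amount: 216 of 474 passed as higher (45.6%) and 85 as lower (17.9%). Over all genes these shares were 33.5% and 35.1%. The ZNF median was 0.23, beside -0.006 for all genes. With scaling to total reads the ZNF median was 0.388 and that of all genes 0.153. By chromosome, the median log2 fold change was 0.361 over the 728 tested genes of chromosome 5 and -0.361 over the 829 of chromosome 11. MIR205HG, host of an epithelial microRNA, had 0 reads in HMLE-TWIST1 (at least 8324-fold lower), and MEG3, an imprinted noncoding RNA, 0 reads in HMLE (at least 2315-fold higher).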
